A study of Danio rerio with 6 samples.

Results

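Cadherins, protocadherins and catenins form the adhesion machinery of the gastrula, and their transcripts were followed in zebrafish embryos carrying an excess of active or inactive Mcpip1. Genes were taken by symbol: those named cdh or pcdh with a number and those whose symbol begins with ctnna, ctnnb1, ctnnb2 or ctnnd. Of the 32057 genes in the count files, 89 met this rule, and the 38 with a mean raw count of 10 or more over the 6 libraries are described here. None of the 38 passed the study's threshold (p under 0.05 and a fold change over 1.5) by the quasi-likelihood test of edgeR. The study itself used DESeq2. Run here on the same genes, DESeq2 called 0 of the 38, beside 2.64% of all genes. It called 1 when all genes with a read were fitted, beside 2.54% of all genes in that fit. The data below are therefore mainly levels and the error around them.

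Embryos of the AB/TL background received in vitro transcribed mRNA in the yolk at the 1-cell stage and were collected at 6 hpf, the shield stage. The first group received zebrafish Mcpip1 (Mcpip1 WT, 3 libraries), an RNase encoded by *zc3h12a*. The second received the D112N form (Mcpip1 DN, 3 libraries), in which an aspartic acid of the catalytic centre was replaced by asparagine. Both proteins were linked through a P2A peptide to mTurquoise, so the fluorescent protein was shared by the groups, and no uninjected or mTurquoise-only embryos were analysed here. Each library was made from a pool of viable whole embryos, so the p-values below measure the spread between 3 pools per group, and fewer cells of a type cannot be told apart from less RNA per cell.

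Classical cadherins are calcium-dependent receptors that bind the same cadherin on the neighbouring cell. Their cytoplasmic tail carries beta-catenin, beta-catenin carries alpha-catenin, and alpha-catenin couples the complex to actin, while delta-catenins bind closer to the membrane and hold the cadherin at the surface. Beta-catenin also enters the nucleus as the transcriptional partner of Wnt signalling and sets up the dorsal side of the fish embryo. Protocadherins have cadherin repeats but lack the catenin-binding tail, and the clustered protocadherins are best known from neurons. In zebrafish, *cdh1* (E-cadherin) is needed for epiboly, the spreading of the blastoderm over the yolk that is under way at the shield stage.

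The libraries held 17686041 to 24662219 reads assigned to genes. *zc3h12a*, the injected gene, had 170242, 22302 and 22767 normalized counts with Mcpip1 WT, against 36491, 16111 and 7907 with Mcpip1 DN. A normalized count is a raw count put on the scale of an average library. Pairs of libraries of the same group had a mean correlation of 0.904 across genes and pairs of different groups 0.910, so libraries were no more alike within a group than between groups. Summed markers of the blastoderm ranged from 55917 to 144201 normalized counts in Mcpip1 WT and from 77557 to 150181 in Mcpip1 DN. Those of the enveloping layer ranged from 134724 to 252457 in Mcpip1 WT and from 187063 to 294110 in Mcpip1 DN, and those of the yolk syncytial layer from 2578 to 6507 in Mcpip1 WT and from 3522 to 5725 in Mcpip1 DN. The 3 matched markers of later tissues summed to 35.8 to 43.8 in Mcpip1 WT and to 41.2 to 49.0 in Mcpip1 DN. Of the blastoderm, enveloping layer, yolk syncytial layer and later tissue lists, 7, 8, 4 and 2 markers were tested. None passed the threshold, beside 2.14% of all genes tested. Fold changes were positive for 4 and negative for 3 blastoderm markers, and positive for 1 and negative for 7 of the enveloping layer. The yolk syncytial layer had 3 positive and 1 negative, and the later tissues 1 of each. The part of these markers in the values below was not tested.

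The core adhesion complex was abundant in every library. *ctnna1*, *ctnnb2*, *ctnnb1*, *ctnnd1*, *cdh2* and *cdh1* took 89.5 to 94.1% of the reads of the 38 genes, and the 8 catenin genes alone took 85.9 to 89.1%. The 38 genes together made up 0.388, 0.466 and 0.302% of gene-assigned reads with Mcpip1 WT, against 0.529, 0.493 and 0.312% in the Mcpip1 DN libraries, so the third library of each group held the smallest share. Transcript lengths were not used here, so levels are compared between libraries and not between genes.

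**Figure D1:**
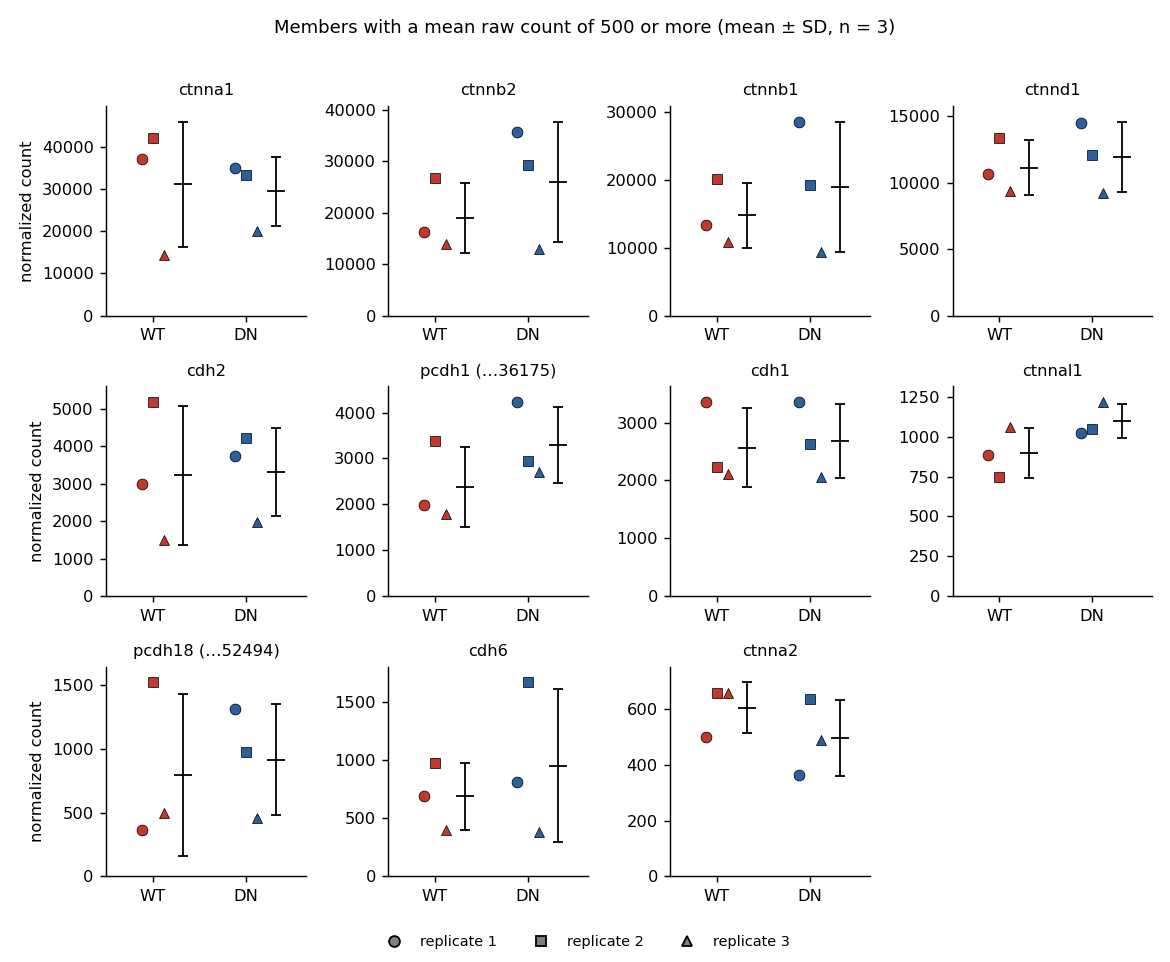
Normalized counts (vertical axes, starting at 0) of the 11 genes with a mean raw count of 500 or more, with Mcpip1 WT (red) left of Mcpip1 DN (blue). Points are libraries, with the shape giving the replicate number, and bars are the mean ± SD of 3 libraries. The groups overlap in all 11 genes.

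*cdh1*, the E-cadherin of the blastoderm, had 3355, 2231 and 2112 normalized counts with Mcpip1 WT, against 3353, 2626 and 2060.4 with Mcpip1 DN. The levels averaged 2566 ± 686 with Mcpip1 WT, against 2679.8 ± 648 with Mcpip1 DN (SD, n = 3 each), and the first library of each group was the highest at nearly the same value. The fit gave a log2 fold change of -0.062 (SE 0.28, 95% interval -0.67 to 0.55), or 0.627- to 1.46-fold. *cdh2*, the N-cadherin that supports mesodermal and neural cell cohesion, had 2997, 5188 and 1498 normalized counts with Mcpip1 WT, against 3738, 4211 and 1981 with Mcpip1 DN. It was more uneven than *cdh1*, with a range of 3.46-fold among the Mcpip1 WT libraries and 2.13-fold among the Mcpip1 DN libraries. Its means were 3228 ± 1856 with Mcpip1 WT, against 3310.0 ± 1175 with Mcpip1 DN (SD, n = 3 each), with a log2 fold change of -0.036 (SE 0.42, 95% interval -0.96 to 0.88).

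The exchange of E-cadherin for N-cadherin accompanies the internalization of mesoderm in mouse and chick embryos, so the ratio of both genes was taken within each library, where it does not depend on the scaling of libraries. The reads of *cdh2* over those of *cdh1* gave 0.893, 2.33 and 0.709 with Mcpip1 WT, against 1.11, 1.60 and 0.961 in the Mcpip1 DN libraries. The Mcpip1 WT values enclosed all of the Mcpip1 DN values. The mean log2 ratio was 0.19 ± 0.91 with Mcpip1 WT, against 0.26 ± 0.38 with Mcpip1 DN (SD, n = 3 each), a difference of -0.074 with p = 0.9 in the two-sided exact permutation test, adjusted to 0.9 over the 2 ratios tested. With 3 libraries against 3, this test cannot give a p below 0.1. Leaving out single libraries moved the difference between -0.59 and 0.27, with a positive sign without Mcpip1 WT replicate 1, Mcpip1 WT replicate 3 or Mcpip1 DN replicate 2.

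**Figure D2:**
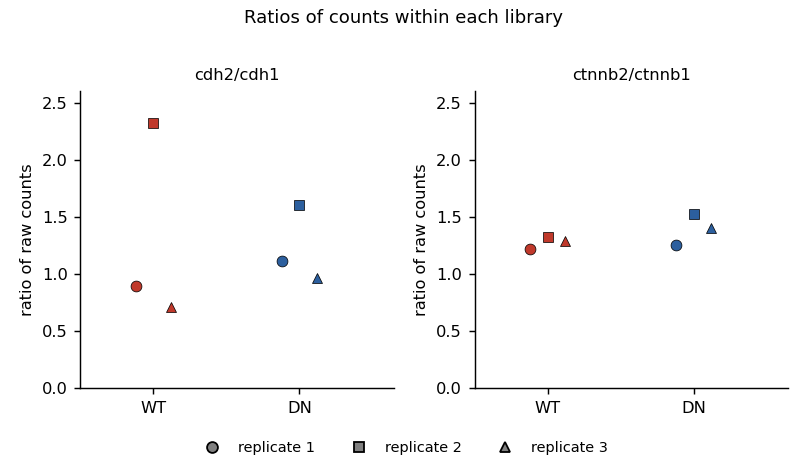
Ratio of raw reads within each library (vertical axes, starting at 0) for *cdh2* over *cdh1* and for *ctnnb2* over *ctnnb1*, with Mcpip1 WT left of Mcpip1 DN and the shape giving the replicate number. The first ratio spans 0.709 to 2.33 and the second 1.21 to 1.52, and the groups overlap in both.

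Zebrafish have a pair of beta-catenin genes, and maternal *ctnnb2* is needed for the dorsal organizer. *ctnnb2* had 16182, 26635 and 13944 normalized counts with Mcpip1 WT, against 35684, 29322 and 13004 with Mcpip1 DN. It averaged 18921 ± 6774 with Mcpip1 WT, against 26003 ± 11698 with Mcpip1 DN (SD, n = 3 each), with a log2 fold change of -0.46 (SE 0.39, 95% interval -1.32 to 0.40), or 0.400- to 1.32-fold. *ctnnb1* had 13323, 20131 and 10856 normalized counts with Mcpip1 WT, against 28432, 19252 and 9285 with Mcpip1 DN. Its means were 14769.8 ± 4804 with Mcpip1 WT, against 18989 ± 9576 with Mcpip1 DN (SD, n = 3 each), with a log2 fold change of -0.36 (SE 0.40, 95% interval -1.23 to 0.51). In both genes the first Mcpip1 DN library was the highest of the 6 and the third Mcpip1 DN library the lowest, so the range within Mcpip1 DN, 2.74-fold for *ctnnb2* and 3.06-fold for *ctnnb1*, was wider than the difference between the groups. Without Mcpip1 DN replicate 3 the log2 fold change of *ctnnb2* was -0.79 and that of *ctnnb1* -0.71, both short of the threshold, and without Mcpip1 DN replicate 1 they were -0.16 and 0.049.

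The proportion of the paralogs varied less than their levels. The reads of *ctnnb2* over those of *ctnnb1* were 1.21, 1.32 and 1.28 with Mcpip1 WT, against 1.26, 1.52 and 1.40 in the Mcpip1 DN libraries. The highest ratio was 1.25 times the lowest, against 3.28 times for *cdh2* over *cdh1*. The mean log2 ratios were 0.35 ± 0.063 with Mcpip1 WT, against 0.47 ± 0.14 with Mcpip1 DN (SD, n = 3 each), a difference of -0.13 (two-sided exact permutation p = 0.3, adjusted p = 0.6). The genes are close paralogs, and how reads shared by both were counted could shift the ratio.

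*ctnna1*, the alpha-catenin that links the complex to actin, had 37114, 42019.6 and 14223 normalized counts with Mcpip1 WT, against 34849, 33322 and 20068 with Mcpip1 DN. Its lowest library was the third of Mcpip1 WT, 2.95-fold below the highest. The means were 31119 ± 14836 with Mcpip1 WT, against 29413 ± 8129 with Mcpip1 DN (SD, n = 3 each), with a log2 fold change of 0.081 (SE 0.40, 95% interval -0.80 to 0.97). *ctnnd1*, the delta-catenin that stabilizes cadherins at the membrane, had 10674, 13393 and 9342 normalized counts with Mcpip1 WT, against 14529, 12109.6 and 9233 with Mcpip1 DN. It was the evenest of the 4 abundant catenins, with a range of 1.43-fold within Mcpip1 WT and 1.57-fold within Mcpip1 DN. It averaged 11136 ± 2065 with Mcpip1 WT, against 11957 ± 2651 with Mcpip1 DN (SD, n = 3 each), with a log2 fold change of -0.10 (SE 0.27, 95% interval -0.70 to 0.49).

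The other alpha-catenins pointed in opposite directions, and neither passed the test. *ctnna2*, the alpha-catenin known from the nervous system, had 501, 658 and 657 normalized counts with Mcpip1 WT, against 362, 637 and 489 with Mcpip1 DN, with a log2 fold change of 0.29 (SE 0.33, 95% interval -0.44 to 1.02). *ctnnal1*, a relative of alpha-catenin, had 884, 747 and 1061 normalized counts with Mcpip1 WT, against 1025, 1049 and 1219.6 with Mcpip1 DN, with a log2 fold change of -0.29 (SE 0.27, 95% interval -0.89 to 0.31). Only the third Mcpip1 WT library of *ctnnal1* reached into the Mcpip1 DN range. The neural delta-catenins were scarce: *ctnnd2b* had 30, 54 and 79 raw reads with Mcpip1 WT, against 3, 65 and 38 with Mcpip1 DN. Its relative *ctnnd2* had 18, 54 and 62 raw reads with Mcpip1 WT, against 7, 36 and 30 with Mcpip1 DN. Both were lowest in the first Mcpip1 DN library.

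Among the abundant protocadherins, *pcdh1* (ENSDARG00000036175) had 1977, 3388 and 1789 normalized counts with Mcpip1 WT, against 4233, 2951 and 2701 with Mcpip1 DN. Its means were 2385 ± 874 with Mcpip1 WT, against 3295 ± 822 with Mcpip1 DN (SD, n = 3 each), with a log2 fold change of -0.47 (SE 0.30, 95% interval -1.13 to 0.20), and only the second Mcpip1 WT library lay within the Mcpip1 DN range. *pcdh18* (ENSDARG00000052494) had 361, 1519 and 496 normalized counts with Mcpip1 WT, against 1314, 977 and 455 with Mcpip1 DN, a range of 4.21-fold within Mcpip1 WT, with a log2 fold change of -0.21 (SE 0.54, 95% interval -1.39 to 0.97). Both genes depended on Mcpip1 WT replicate 2. Without it, *pcdh1* had a log2 fold change of -0.81 and *pcdh18* of -1.09, both past the threshold with 4.23% of all genes tested, and without Mcpip1 DN replicate 1 the value of *pcdh18* was 0.14.

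The type II cadherins are a branch of the classical cadherins with more restricted expression. All 8 described had a negative log2 fold change, from -0.91 to -0.071 with a median of -0.40, and none passed the test. Negative values were also held by 26 of the 38 genes, and by 49.2% of all genes tested. The shared sign did not hold under every alternative: *cdh18* and *cdh22* were positive under the replicate block, *cdh11* and *cdh24a* without Mcpip1 WT replicate 1, and *cdh18*, *cdh22* and *cdh24a* without Mcpip1 DN replicate 3. *cdh6*, the most abundant, had 693, 975 and 395 normalized counts with Mcpip1 WT, against 809.8, 1667 and 382 with Mcpip1 DN, with a log2 fold change of -0.47 (SE 0.50, 95% interval -1.57 to 0.63). The second Mcpip1 DN library stood above the other 5, and without it the log2 fold change was 0.19. *cdh18a* had 32, 21 and 53 reads with Mcpip1 WT, against 27, 56 and 97 with Mcpip1 DN, with a log2 fold change of -0.91 (SE 0.79, 95% interval -2.65 to 0.82). Its groups overlapped, since the third Mcpip1 WT library exceeded the first Mcpip1 DN library. The related *cdh18* had 74, 71 and 100 raw reads with Mcpip1 WT, against 37, 82 and 117 with Mcpip1 DN. *cdh7* had 39, 54 and 32 raw reads with Mcpip1 WT, against 43, 46 and 62 with Mcpip1 DN. In both genes the groups overlapped.

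Over the 38 genes, 0 were called higher and 0 lower, where 0.874% and 1.27% of the 16126 genes tested were called in those directions. In either direction, 2.14% of all genes were called. By edgeR, 0 of the 38 genes had an unadjusted p under 0.05, and every Benjamini-Hochberg adjusted p was 1.00. In this fit no gene in the whole table had an adjusted p under 0.05, and 356 had an unadjusted p under 0.05. An adjusted p under 0.05 was reached by 1 gene with DESeq2 on the same genes. When edgeR fitted all genes with at least 1 count, 9 genes reached it. None of these was among the 38. DESeq2's Wald test called 0 of the 38 on the same genes, beside 2.64% of all genes. It called 1, *pcdh19*, when all genes with a read were fitted, beside 2.54% of all genes in that fit. The log2 fold change was positive for 12 and negative for 26 of the 38, with a median of -0.20, beside 8187 positive and 7939 negative values and a median of 0.0090 over all genes tested. The 11 abundant genes had a median standard error of 0.39 and the other 27 of 1.22, against 0.47 over all genes. Of these 27 scarcer genes, 23 had an interval that reached below a 3-fold decrease, 19 one that reached above a 3-fold increase, and 16 one that did both.

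**Figure D3:**
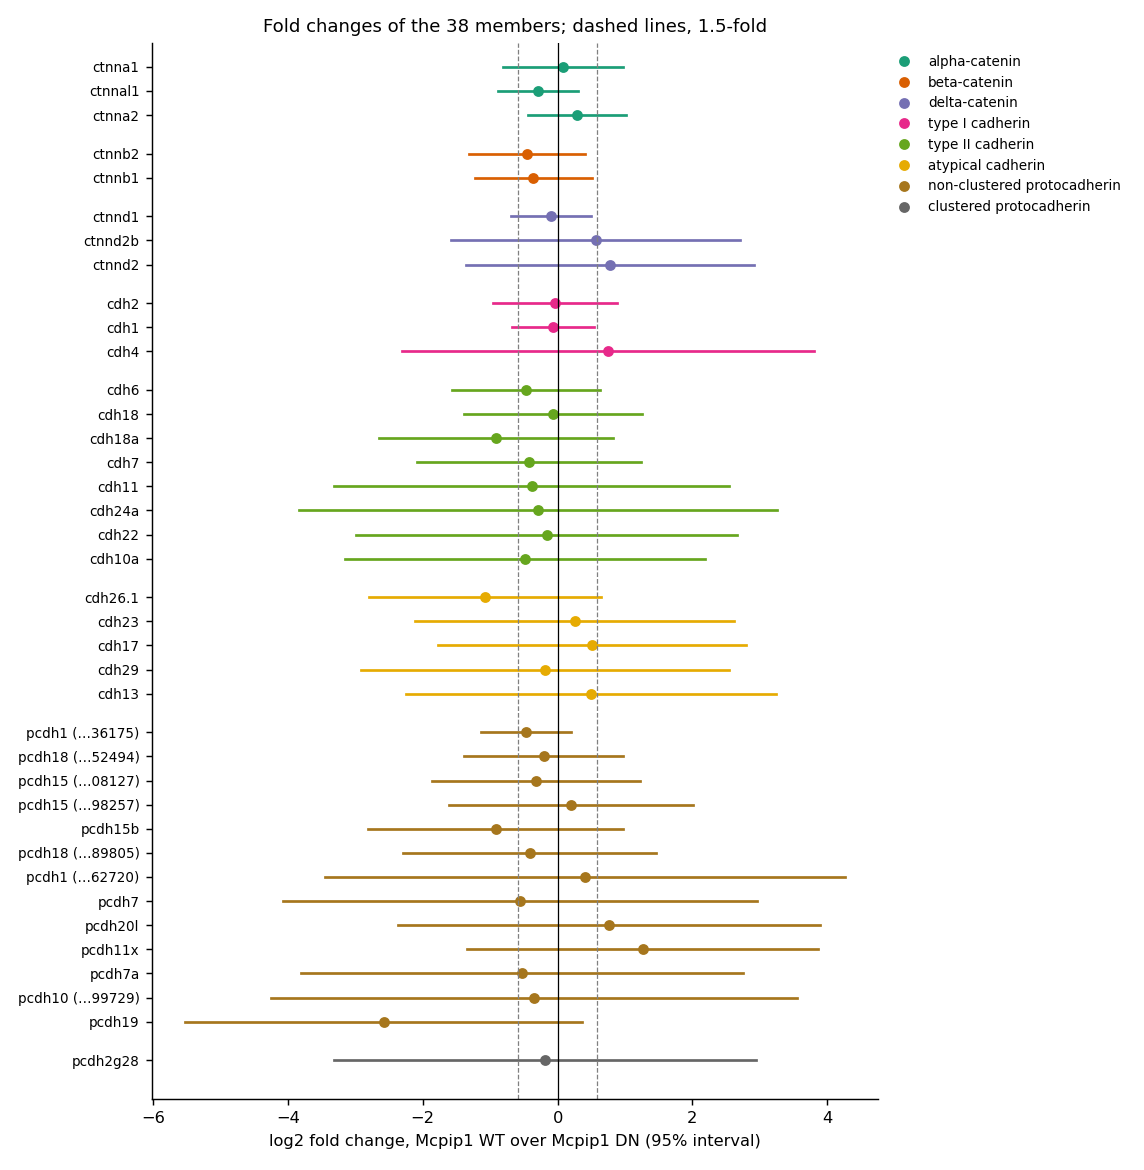
Log2 fold change of Mcpip1 WT over Mcpip1 DN (horizontal axis) for the 38 genes, grouped and coloured by class, with the 95% interval of edgeR's quasi-likelihood fit as a bar. Dashed lines mark 1.5-fold, and each interval includes 0.

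*pcdh19*, a protocadherin that acts with N-cadherin in the forming zebrafish neural tube, was the gene with the largest fold change. It had 5, 3 and 2 reads with Mcpip1 WT, against 11, 23 and 24 with Mcpip1 DN, and the groups did not overlap. It met the minimum of 10 reads only through Mcpip1 DN, with a mean of 3.33 reads with Mcpip1 WT, against 19.3 with Mcpip1 DN, so the values here are a description of a gene that entered through its higher group. The sums were 10 reads with Mcpip1 WT, against 58 with Mcpip1 DN, a ratio of 0.154 after scaling, with a counting interval of 0.0700 to 0.303 that leaves out the spread between pools. The fit gave a log2 fold change of -2.58 (SE 1.34, 95% interval -5.53 to 0.36), and leaving out single libraries moved the value between -3.03 and -2.26. DESeq2 on all genes with a read gave -2.64, past the threshold (adjusted p = 0.999). The gene stands in the study's heatmap of lower genes selected from these libraries, so its direction here is not independent evidence, and a fitted fold at so few reads depends on the prior count.

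*cdh26.1* was the other gene whose groups did not overlap, though only after scaling, since its raw reads overlapped, with 14, 45 and 40 reads with Mcpip1 WT, against 42, 63 and 83 with Mcpip1 DN. Scaled to library size, these were 14.2, 46.1 and 33.0 normalized counts with Mcpip1 WT, against 57.8, 58.3 and 81.4 with Mcpip1 DN, with a log2 fold change of -1.08 (SE 0.78, 95% interval -2.80 to 0.64). The first Mcpip1 WT library was the lowest of the 6. Together with *pcdh19*, this made 2 of 38 genes (5.26%) with groups apart, both lower in Mcpip1 WT, beside 8.06% of all genes tested in either direction and 4.08% in the lower direction. The share in the set lay between these background shares, and the count and its direction include *pcdh19*, which the minimum let in through Mcpip1 DN.

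*pcdh11x*, a protocadherin known from the nervous system, had the largest positive fold change. It had 40, 15 and 40 reads with Mcpip1 WT, against 15, 3 and 14 with Mcpip1 DN, with a log2 fold change of 1.26 (SE 1.18, 95% interval -1.34 to 3.87). The second Mcpip1 WT library held as many reads as the first Mcpip1 DN library. *pcdh15b*, whose mammalian relative forms part of the tip link of sensory hair cells, had 28, 17 and 82 reads with Mcpip1 WT, against 21, 52 and 141 with Mcpip1 DN, with a log2 fold change of -0.92 (SE 0.86, 95% interval -2.82 to 0.98). Without Mcpip1 DN replicate 3 the value was -0.035.

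**Figure D4:**
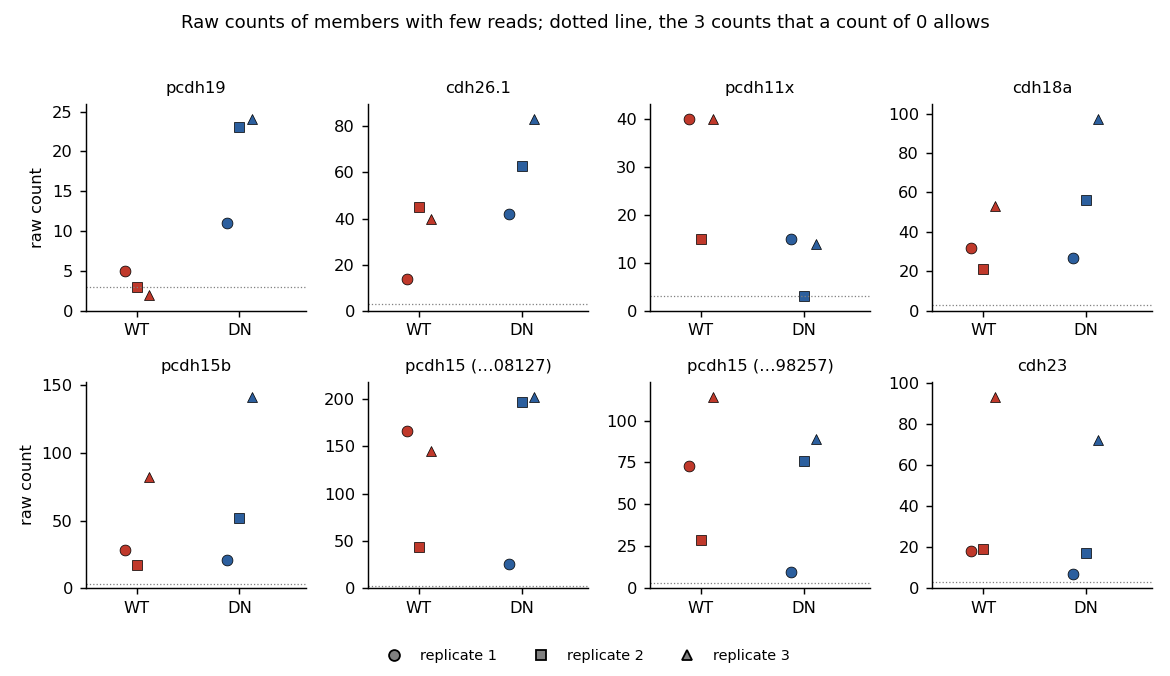
Raw reads per library (vertical axes, starting at 0) of 8 genes with few reads, with Mcpip1 WT left of Mcpip1 DN and the shape giving the replicate number. The dotted line marks 3 reads, the limit that a count of 0 allows. The groups are apart in *pcdh19*, at 2 to 5 reads in Mcpip1 WT and 11 to 24 in Mcpip1 DN.

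Genes of the hair cell tip link varied mainly between libraries. Of the 2 genes named *pcdh15*, ENSDARG00000008127 had 166, 44 and 145 raw reads with Mcpip1 WT, against 26, 197 and 202 with Mcpip1 DN. ENSDARG00000098257 had 73, 29 and 114 raw reads with Mcpip1 WT, against 10, 76 and 89 with Mcpip1 DN. With *pcdh15b* they summed to 267, 90 and 341 reads with Mcpip1 WT, against 57, 325 and 432 with Mcpip1 DN. The second Mcpip1 WT and the first Mcpip1 DN library were the lowest, at 0.000365% (95% Wilson interval 0.000297 to 0.000449) and 0.000322% (0.000249 to 0.000418) of gene-assigned reads, and their intervals lay below those of the other 4. The genes share a name and may share reads. *cdh23*, the partner of PCDH15 in the mammalian tip link, had 18, 19 and 93 raw reads with Mcpip1 WT, against 7, 17 and 72 with Mcpip1 DN, with the third library the highest of each group.

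Several scarce genes were nearly absent from single libraries. Of the 38 genes, 14 had a library at 3 reads or fewer, and in 11 of these another library of the same group held 20 or more. The second gene named *pcdh1* (ENSDARG00000062720) had 0, 77 and 1 raw reads with Mcpip1 WT, against 1, 28 and 33 with Mcpip1 DN. *pcdh7* had 10, 0 and 52 raw reads with Mcpip1 WT, against 25, 47 and 1 with Mcpip1 DN. In both, libraries of the same group differed by more than 20 reads. *pcdh10* (ENSDARG00000099729) had 32, 1 and 1 raw reads with Mcpip1 WT, against 19, 19 and 0 with Mcpip1 DN. *cdh11*, a cadherin of mesenchyme and bone-forming cells in mammals, had 0, 63 and 21 raw reads with Mcpip1 WT, against 29, 28 and 42 with Mcpip1 DN. The groups overlapped in these 4 genes, and no direction can be read from them. *cdh13*, which is tethered by a lipid anchor and lacks a cytoplasmic tail, had 41, 2 and 31 raw reads with Mcpip1 WT, against 15, 17 and 13 with Mcpip1 DN. *cdh17*, known in zebrafish from the pronephric duct, had 35, 19 and 32 raw reads with Mcpip1 WT, against 10, 22 and 23 with Mcpip1 DN. *cdh4*, a classical cadherin of the later nervous system, had 25, 11 and 10 raw reads with Mcpip1 WT, against 12, 10 and 1 with Mcpip1 DN. Only through Mcpip1 WT did *cdh4* meet the minimum, with a mean of 15.3 reads, against 7.67 with Mcpip1 DN. These 3 genes also overlapped between the groups. Another 7 genes, *cdh10a*, *cdh22*, *cdh24a*, *cdh29*, *pcdh7a*, *pcdh20l* and the second gene named *pcdh18*, held between 0 and 67 reads a library. The 5 atypical cadherins had log2 fold changes of -1.08 to 0.52 and the 13 non-clustered protocadherins of -2.58 to 1.26, none past the test.

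The clustered protocadherins had few reads at this stage. Of 35 such genes, 19 had no read in any library, and only *pcdh2g28* reached the minimum, with 5, 24 and 6 raw reads with Mcpip1 WT, against 1, 13 and 26 with Mcpip1 DN. A count of 0 allows up to 3 reads, or 2.48 to 4.13 normalized counts depending on the library.

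The abundant genes varied by library. Among the 11 abundant genes, the second Mcpip1 WT library was the highest in 4 and the first Mcpip1 DN library in 4, while the third Mcpip1 WT library was the lowest in 3 and the third Mcpip1 DN library in 5. Relative to the mean of the 6 libraries, their median log2 deviation was -0.10, 0.35 and -0.57 with Mcpip1 WT, against 0.35, 0.24 and -0.50 in the Mcpip1 DN libraries. The median over all genes lay between -0.0048 and 0.11 in every library. The third library of each group was thus low for the median of these genes, though not for each of them: *ctnnal1* stood at 0.11 in the third Mcpip1 WT and 0.31 in the third Mcpip1 DN library, and *ctnna2* at 0.29 in the third Mcpip1 WT library. Over all 38 genes the medians in the third libraries were -0.098 with Mcpip1 WT, against 0.046 with Mcpip1 DN, and the third Mcpip1 DN library was the highest in 11 genes. The scaling keeps the median over all genes small, so the pattern is not shown to be particular to this set. On the first principal component over all genes tested (35.9% of the variance), the Mcpip1 WT libraries stood at -18.45, 66.1 and -53.5. The Mcpip1 DN libraries stood at 101.1, -24.3 and -70.9. The cause was not tested.

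**Figure D5:**
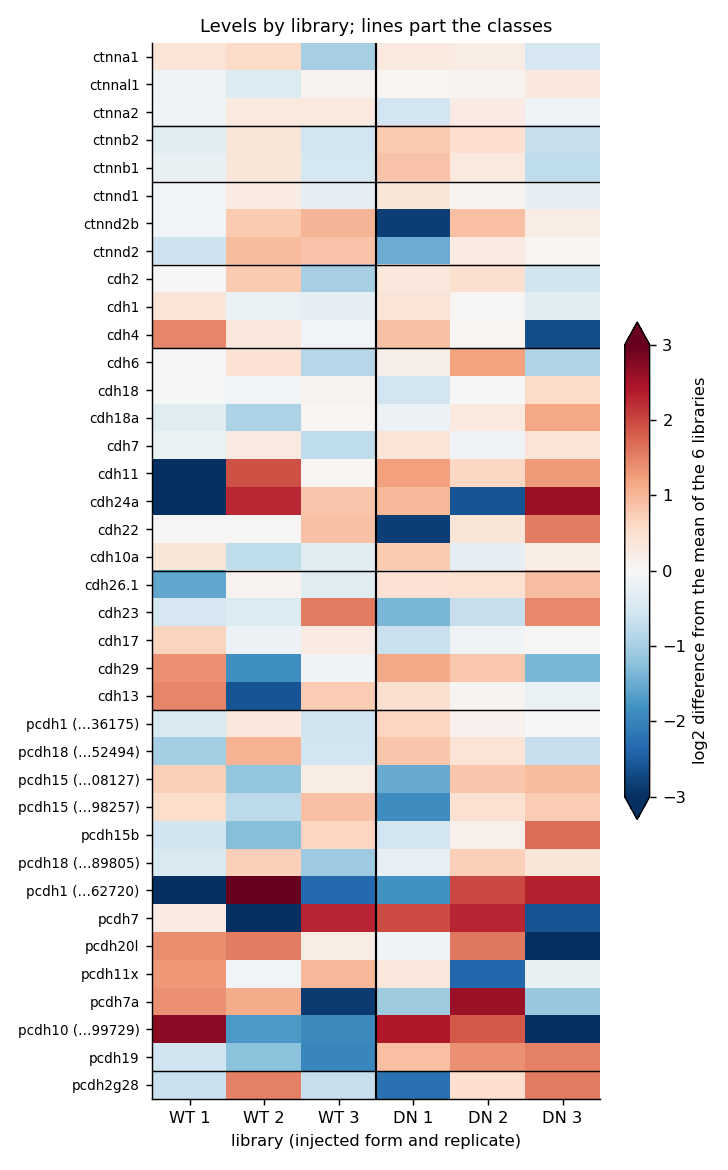
Log2 difference of each library from the mean of the 6 libraries (colour, scale ending at -3 and 3) for the 38 genes in rows, with Mcpip1 WT left of Mcpip1 DN and lines between the classes. *ctnnb1*, *ctnnb2*, *ctnna1* and *cdh2* are low in the third library of both groups. The 3 genes named *pcdh15* or *pcdh15b* are low in Mcpip1 WT 2 and Mcpip1 DN 1. *pcdh15b* is also low in Mcpip1 WT 1 (-0.60, against -0.57 in Mcpip1 DN 1).

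Partners of the complex were taken as lists. Of 28 junction partners listed, 23 were tested, and 1 was lower and 0 higher, with a median log2 fold change of 0.15, beside 1.27% of all genes called lower and 0.874% called higher. The lower gene was a *pkp1* gene (ENSDARG00000052705), a plakophilin that anchors desmosomes, with 78.1, 252.9 and 137.9 normalized counts with Mcpip1 WT, against 342.9, 348.8 and 413.1 in the Mcpip1 DN libraries. The groups did not overlap, with a log2 fold change of -1.24 (SE 0.47, adjusted p = 1.00). The call was lost without Mcpip1 WT replicate 1 (-0.91), Mcpip1 WT replicate 3 (-1.14) or Mcpip1 DN replicate 3 (-1.15). Nectin 1 (ENSDARG00000069767), an adhesion receptor that sits beside the cadherins, had 98.4, 120.8 and 73.5 normalized counts with Mcpip1 WT, against 41.3, 25.9 and 42.2 in the Mcpip1 DN libraries. Its groups were apart in the opposite direction, with a log2 fold change of 1.42 (SE 0.65) that missed the threshold. The other nectin 1 gene (ENSDARG00000086034) had a log2 fold change of -0.29 (SE 0.72) and *nectin3b* of -0.32 (SE 0.31), both with overlapping groups. Another pair of plakophilins, *pkp3a* (-0.61, SE 0.31) and *pkp4* (-0.49, SE 0.27), were apart and lower with Mcpip1 WT and also missed the threshold. The other plakophilins listed, *pkp1a* (0.97, SE 1.38), *pkp2* (0.41, SE 1.04) and *pkp3b* (0.42, SE 0.36), had positive fold changes and overlapping groups. In all, 3 of the 23 were apart and lower and 1 apart and higher, beside 8.06% of all genes apart in either direction and 4.08% in the lower direction.

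The other pathway lists held no call past the threshold, beside 2.14% of all genes tested. Of the genes of cadherin turnover and trafficking, 16 were tested, 9 with a positive and 7 with a negative fold change and a median of 0.072. Of the transcriptional repressors of *cdh1*, 8 of the Snail and Zeb families were tested, 4 in each direction, with a median of -0.036. The Twist genes listed, *twist1a*, *twist1b* and *twist2*, did not pass the filter and were not tested. Of the beta-catenin destruction complex and its nuclear partners, 17 were tested, 7 positive and 10 negative, with a median of -0.072. Of these 17, 2 had groups apart and higher with Mcpip1 WT (*apc2*, 1.89, SE 1.35, and *pygo1*, 0.89, SE 0.68). Another 2 were apart and lower (*tcf7l1b*, -0.34, SE 0.27, and *ctnnbip1*, -0.48, SE 0.22). *apc2* had few raw reads, 11, 16 and 34 with Mcpip1 WT, against 1, 10 and 4 with Mcpip1 DN. *pygo1* had 15.1, 87.0 and 107.9 normalized counts with Mcpip1 DN, so its first Mcpip1 DN library was far below the others. Among all genes tested, 8.06% were apart in either direction and 4.08% in the lower direction. No tested gene of the turnover or repressor lists had groups apart.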

How the data were processed

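Poly(A) RNA from pools of embryos was sequenced on an Ion Proton instrument. Per the labels, the authors' processing notes name STAR 2.7.10a, Bowtie2 2.4.4, HTSeq, DESeq2 and the GRCz11 build. The deposited files hold raw counts of reads per Ensembl gene. The HTSeq version, annotation release and strand setting are not given in the sources used here, so overlapping and antisense genes and close paralogs may share reads. The 5 rows that name no gene (16.5 to 26.1% of counts) were left out. Symbols came from a gene name table, which named 28988 of 32057 genes. Symbols in capitals are written in lower case, and genes that share a symbol are told apart by Ensembl ID.

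Genes were filtered with filterByExpr (minimum count 10), scaled by TMM and tested with edgeR 4.0.16 (limma 3.58.1, R 4.3.3) by the quasi-likelihood test, Mcpip1 WT over Mcpip1 DN, without covariates. The 16126 genes tested included all 38 described. Standard errors were derived from each fold change with its F statistic, and p-values were adjusted by Benjamini-Hochberg over all genes tested. Ratios of raw counts (pseudocount 0.5) were compared by exact permutation. Normalized counts are counts scaled to the average effective library. The fit was also run on simulated counts, drawn independently for each gene and library, which leave out differences shared across genes. That run required only that the median simulated fold change be recovered. DESeq2 1.42.0, other normalizations and filters, a replicate block and leaving out each library were tried as alternatives. Counting intervals are at 95% and cover counting error only.

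Given by library were the core complex, *pcdh19*, members past the threshold or with groups apart, the 5 most abundant and the 5 with the largest fold change, with others by class. Further genes named for their uneven or abundant reads were chosen after their values were seen. One protocadherin is not reported here. Members and lists were chosen with earlier results of these data known.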

Additional observations from a re-analysis of the deposited data

How the results depend on the processing

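The number of members called stayed at 0 higher and 0 lower under DESeq2 on the same genes, DESeq2 size factors, normalization without *zc3h12a*, all genes with at least 1 count, a minimum count of 30 (24 of the 38 tested) and the replicate block. Of all genes, 2.08 to 3.13% were called in these fits. DESeq2 run without a filter on low counts, chosen after seeing the data, called 1 lower, *pcdh19* (-2.64), beside 2.54% of all genes. Leaving out each library in turn gave 0 higher, 0 to 2 lower, and a median log2 fold change of -0.23 to -0.097. Those fits called 0.848 to 4.23% of all genes. The 2 lower were *pcdh1* (-0.81) and *pcdh18* (-1.09), without Mcpip1 WT replicate 2. Members with groups apart numbered 4 to 10 in those fits, or 10.5 to 26.3%, beside 12.3 to 21.3% of all genes in the same fits, a range chosen after seeing the data.

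With single libraries left out, the sign changed for *ctnna1* (-0.20 to 0.42), *ctnnb1* (-0.71 to 0.049), *ctnnd1* (-0.27 to 0.061), *cdh1* (-0.30 to 0.13), *cdh2* (-0.56 to 0.31), *pcdh18* (-1.09 to 0.14), *cdh6* (-0.85 to 0.19) and the *cdh2* to *cdh1* ratio (-0.59 to 0.27). It was kept for *ctnnb2* (-0.79 to -0.16), the *ctnnb2* to *ctnnb1* ratio (-0.20 to -0.058), *pkp1* (-1.76 to -0.91), *pcdh1*, *ctnnal1*, *ctnna2*, *pcdh15b*, *cdh26.1*, *cdh18a*, *pcdh11x* and *pcdh19*. The cause was not tested.

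Deviations of same-numbered libraries correlated at 0.0065, -0.083 and 0.301, and 3 of 6 libraries correlated best with their own number. So few correlations cannot show whether same-numbered libraries were paired. The replicate block gave -0.023 for *ctnna1* in place of 0.081, a median of -0.28 over the members, and 144 higher and 288 lower genes in the whole table, against 141 and 204. Fitting all genes with at least 1 count gave 336 and 432. Leaving out Mcpip1 WT replicate 1, 2 or 3 gave 69 and 75, 203 and 512, and 291 and 421. Leaving out Mcpip1 DN replicate 1, 2 or 3 gave 225 and 176, 205 and 174, and 146 and 220. The 27 members with a mean under 500 counts had a median standard error of 1.22, in which counting error and the spread between pools were not separated.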

Other observations

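Of the 89 genes that met the rule, 51 had a mean under 10 counts. Of these, 20 had no read in any library and 17 had 1 to 9 reads in total. The gene just under the minimum was the other *pcdh10* (ENSDARG00000102824), with 4, 0 and 13 raw reads with Mcpip1 WT, against 0, 37 and 0 with Mcpip1 DN, so that a single Mcpip1 DN library held most of its reads. The genes just over the minimum were *pcdh19* (mean 11.3) and *cdh4* (mean 11.5).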
